A study of Mus musculus with 23 samples.

Results

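This report compares type II pneumocytes (AT2 cells) with endothelial cells (EC) of the mouse lung at postnatal days 1 and 7 (P1, P7). It uses 7 of the 23 samples of a microRNA time course, chosen by the cell type and age in their labels and by the sort marker in the sample descriptions: 4 AT2 samples sorted on CD326 (2 at P1, 2 at P7) and 3 EC samples sorted on CD31 (1 at P1, 2 at P7). All came from wild-type (WT) mice labelled C57BL6, with no treatment, transgene or deletion named. The labels do not say whether a sample is 1 animal or a pool, nor that samples came from separate animals. The p-values therefore reflect sample-to-sample spread only, part of which may be technical. All 3 EC samples share their title ID with an AT2 sample. The labels use the name type II pneumocyte without regard to age, and the cell mix of each sorted sample was not measured.

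Type II pneumocytes make and secrete surfactant, the lipid and protein film that keeps alveoli open, and they are progenitors of the flat type I cells that carry gas exchange. Endothelial cells line the capillaries that grow along with the alveoli after birth. A microRNA is a short RNA that guides Argonaute proteins to messenger RNAs, mostly through its seed at the 5′ end, and lowers their translation or stability. Because 1 microRNA can act on many messages, the set of abundant microRNAs is part of what defines a cell type.

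The panel counts probe barcodes (NanoString nCounter) for 602 microRNAs. Values are given as the deposited signal, which is the count times 1 factor per sample. Recovered counts in the 7 samples ranged from 132158 (AT2 P1 replicate 1) to 571715 (EC P1 replicate 1). A microRNA was called above background in a sample when its count exceeded the mean plus 2 SD of 8 low control rows there. Of the 602, 287 stayed below that limit in each of the 7 samples. Testing was limited to the 302 that passed it in 2 or more of the 23. Outside the week, 2 late EC samples stood apart: the AT2-high set described further on took 3.62% of the counts in EC P14 replicate 2 and 1.29% in EC P28 replicate 2, against 0.290% and 0.409% in the other late EC samples. They enter the estimate of spread and the contrasts with P14 and P28, and without them the week gave 130 calls, 46 higher and 84 lower in AT2 cells (limma). Late AT2 samples were uneven too, and enter the same estimates. The EC-high set took 7.03% in AT2 P14 replicate 2, against 0.363% to 2.01% in the other late AT2 samples. AT2 P28 replicate 1 had only 26640 counts and a background limit of 1 count. No fit left out these late AT2 samples by themselves. No source used here ties a probe identifier to a microRNA name or sequence. MicroRNAs are therefore given by identifier, at most 2 in each direction of a comparison, and no check of the sort by named endothelial or epithelial microRNAs was made.

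In the first postnatal week the 2 cell types differed in 123 of the 302 tested microRNAs (40.7%), of which 44 were higher in AT2 cells (14.6%) and 79 were lower (26.2%; limma, mean of the P1 and P7 differences, Benjamini-Hochberg adjusted p under 0.05). Of the 123, 117 differed by 2-fold or more. At 4-fold or more, 13 were higher and 29 were lower in AT2 cells. The median log2 difference was 1.76 over the 44 and -1.55 over the 79, beside -0.46 over all 302. When each sample was shifted to the same median, 57 were higher and 56 lower, and 100 of the 123 were called again. The direction of none of the 123 turned in any scaling, filter, count model or left-out sample that was tried. In bulk samples, fewer cells of a type and less RNA per cell cannot be told apart.

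**Figure D1:**
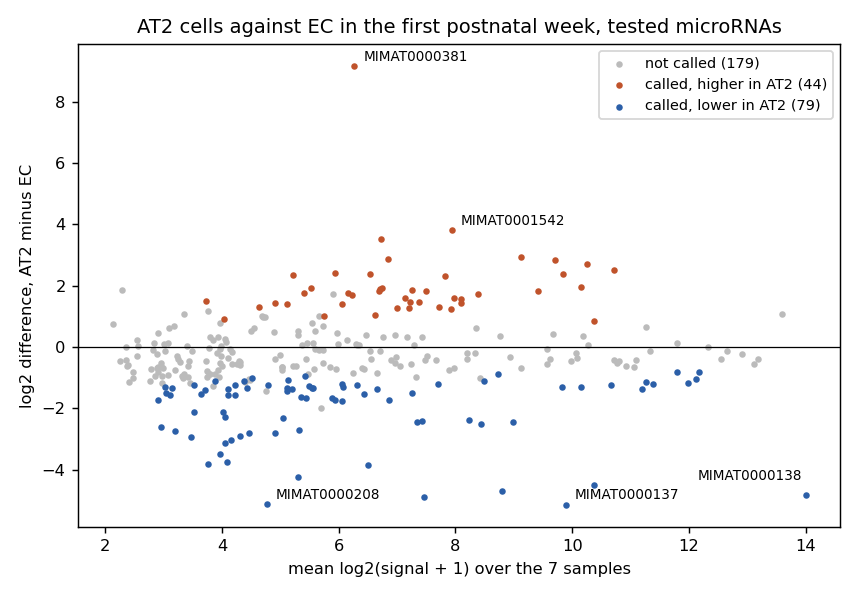
Each point is 1 of the 302 tested microRNAs, with its mean log2(signal + 1) over the 7 samples on the horizontal axis and its log2 difference, AT2 minus EC, on the vertical axis. Orange points are the 44 called higher in AT2 cells, blue the 79 called lower and grey the rest. MIMAT0000381 lies alone at 9.17, and MIMAT0000137 and MIMAT0000208 lie lowest, at -5.15 and -5.12.

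The calls rest on the mean of the P1 and P7 differences of these same samples, which favours agreement in sign. All 44 and all 79 had the same sign at P1 and at P7, beside 234 of all 302. They also had the same sign in each of the 3 title IDs carried by both cell types, which was not counted over all 302. Neither is a separate test. For 31 of the 44, all 4 AT2 values lay above all 3 EC values. For 75 of the 79, all 4 lay below. Over all 302 tested microRNAs the groups did not overlap in 135 (44.7%), with AT2 above EC in 36 (11.9%) and below in 99 (32.8%). Of the called microRNAs, 24 of the 44 and 53 of the 79 were above background in all 7 samples, beside 168 of all 302. The proportion among the 44 was near that over all 302, and the proportion among the 79 was higher. Such microRNAs differed in level between samples that all gave signal. Which cells of a sample gave it was not measured. In each direction, 3 of the called microRNAs were above background in every sample of the higher cell type and in none of the other.

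MIMAT0000381 had the highest difference in favour of AT2 cells. Its signal was 1025.4 and 888.72 in the AT2 samples of P1 and 1470.64 and 1396.57 in those of P7. In EC it was 1 at P1 and 1.16 and 1 at P7, which is at most 2 counts in each sample, since values of 1 were floored there before deposit. The groups were far apart, with every AT2 sample high and every EC sample below background. The log2 difference was 9.17 ± 1.31 (SE; limma, adjusted p = 7.54e-05). With each EC sample raised to its background limit, AT2 cells were at least 61.9-fold higher (all such bounds compare geometric means, P1 and P7 weighing the same). The EC counts also lay below the mean background of their own samples, so the bound holds only if nothing was subtracted from this probe before deposit, which was not tested.

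MIMAT0001542 was the second highest. Its AT2 signal was 1823.7 and 1125.6 at P1 and 654.9 and 639.23 at P7. In EC it was 365.17 at P1, above background, and 15.04 and 9.57 at P7, below background. The groups did not overlap, but EC P1 stood much nearer the AT2 samples than the EC samples of P7 did. The log2 difference was 3.80 ± 0.79 (limma, adjusted p = 0.00147), at least 10.1-fold with EC at the background limits. At P1 the bound was not needed and the log2 difference was 1.97 ± 1.23, which did not pass (limma, adjusted p = 0.361). At P7 it was 5.64 ± 1.00 (adjusted p = 0.000975), at least 26.0-fold. Without EC P1 replicate 1 the week is P7 alone, so 5.64 is also the value without that sample.

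In the other direction, MIMAT0000137 had the lowest difference. Its EC signal was 7309.39 at P1 and 6689.6 and 7828.01 at P7. In AT2 cells it was 137.88 and 40.94 at P1 and 609.07 and 500.06 at P7. EC was level over the week, while AT2 cells were low at P1 and several times higher at P7, still well below every EC sample. The log2 difference was -5.15 ± 0.94 (limma, adjusted p = 0.000568), with -6.58 ± 1.46 at P1 and -3.71 ± 1.19 at P7. All 7 samples were above background for MIMAT0000137.

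MIMAT0000208 was below background in all 4 AT2 samples and above it in all 3 EC samples. Its signal was 179.24 at P1 and 259.12 and 202.75 at P7 in EC. In AT2 cells it was 3.48 and 6.36 at P1 and 3.25 and 7.46 at P7. The AT2 values stayed at or under 17 counts at both ages. The log2 difference was -5.12 ± 0.42, with the lowest adjusted p of the week (limma, 1.44e-07), and AT2 cells were at least 28.5-fold lower when set to their background limits.

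**Figure D2:**
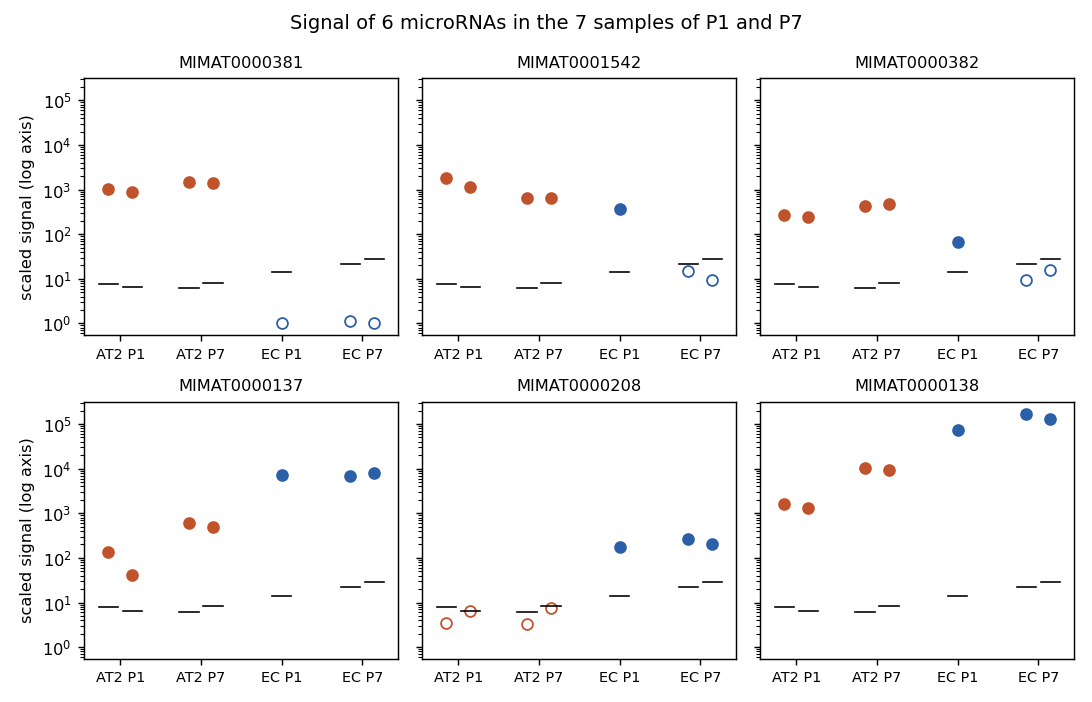
Signal on a log axis in the 7 samples for 6 microRNAs, orange for AT2 and blue for EC, 1 point per sample, open where the count was not above background. Short black lines mark the background limit of each sample. MIMAT0000381 sits at 1 to 1.16 in EC, MIMAT0001542 and MIMAT0000382 are above background in EC at P1 but not at P7, and MIMAT0000137 and MIMAT0000138 are higher in AT2 cells at P7 than at P1.

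The most abundant microRNA separated the cell types as a share of all microRNA counts. MIMAT0000138 took 33.3% of the counts of EC at P1 and 42.9% and 39.7% at P7, and was the highest microRNA of each EC sample. In AT2 cells it took 1.03% and 0.576% at P1 and 7.81% and 6.47% at P7. It was also the highest microRNA of AT2 P7 replicate 1, the sample at 7.81%. The widest 95% Wilson interval of these shares, that of the EC sample at 42.9%, ran from 42.8% to 43.1%; such intervals cover counting error only. The AT2 samples of P7 thus lay several-fold above those of P1 and far below EC. The 10 highest microRNAs of a sample took 60.8% to 66.8% of the counts in EC and 43.4% to 61.3% in AT2 cells. The AT2 value of 61.3% belonged to AT2 P1 replicate 2, where MIMAT0003484 alone took 34.1%. In the other 3 AT2 samples MIMAT0003484 took 3.31% to 12.4%, and in EC 2.46% to 3.37%. Outside the week it took 62.8% in AT2 P28 replicate 3. Its difference of 1.08 ± 0.91 did not pass (limma, adjusted p = 0.348).

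Differences were called at every level of expression. Of 67 microRNAs with a mean signal of 100 to 1000 over the 7 samples, 24 were higher and 14 lower in AT2 cells. Of 36 with a mean over 1000, 4 were higher and 11 lower. Of the rest, with a mean under 100, 16 were higher and 54 lower. The background limit moved with the cell type, at 6.16 to 8.26 in the AT2 samples and 14.4 to 28.2 in EC on the signal scale. With every value below 28.2 raised to 28.2, 47 microRNAs were higher and 58 lower in AT2 cells (limma), and 96 of the 123 were among them.

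The number of microRNAs above background depended on the same limits. Against its own limit, each AT2 sample had 238 to 281 microRNAs above background and each EC sample 196 to 233. Against the 1 limit of 28.2 for all, EC samples had 184 to 196 and every AT2 sample fewer, from 162 up. By their own limits 12 microRNAs were present in all 4 AT2 samples and no EC sample, and 3 in all 3 EC samples and no AT2 sample. By the common limit these numbers were 2 and 16.

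At P1 alone, with 2 AT2 samples against 1 EC sample, 22 microRNAs differed (7.28%), 1 higher (0.331%) and 21 lower (6.95%) in AT2 cells (limma). Both the count and its balance moved with the processing: 30 were higher and 36 lower in the fit on the 7 samples alone, 17 and 27 without the 2 late EC samples that stood apart, 7 and 34 with edgeR, and 8 and 11 with the common floor. The lone EC sample is assumed to vary like the other groups. Besides MIMAT0000208 (-4.97 ± 0.65, adjusted p = 0.000158), the lowest adjusted p was that of MIMAT0004704. Its EC signal was 219.42 at P1 and 232.51 and 178.38 at P7. In AT2 cells it was 9.27 and 2.78 at P1 and 26.02 and 14.49 at P7. The AT2 values were low throughout, and lowest in AT2 P1 replicate 2, where it was below background. Its P1 difference was -5.14 ± 0.73 (limma, adjusted p = 0.000238), at least 28.4-fold. The 1 microRNA called higher at P1 was MIMAT0000381 (8.90 ± 2.04, adjusted p = 0.0106), which missed the threshold without AT2 P1 replicate 2 (limma, adjusted p = 0.0619) and with the common floor of 28.2 (5.03, adjusted p = 0.0712). Without AT2 P1 replicate 2 the count fell from 22 to 8, and without AT2 P1 replicate 1 to 15.

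At P7 alone, with 2 samples against 2, 44% of the tested microRNAs differed, 37 higher (12.3%) and 96 lower (31.8%) in AT2 cells (limma). MIMAT0000382 was 421.32 and 467.57 in AT2 cells at P7 and 9.25 and 15.66 in EC, where it was below background. At P1 it was 269.96 and 242.45 in AT2 cells and 66.57 in EC, above background there. As with MIMAT0001542, EC P1 lay between the groups of P7. Its P7 difference was 5.09 ± 0.88 (limma, adjusted p = 0.000975), at least 17.8-fold, and its P1 difference of 1.93 ± 1.08 did not pass (adjusted p = 0.300). MIMAT0000656 was 74.03 and 53.95 in EC at P7 and 55.94 at P1. It was below background in all 4 AT2 samples, at 2.32 to 5.91. Its P7 difference was -3.60 ± 0.58 (adjusted p = 0.000975), at least 8.86-fold lower in AT2 cells. The median over all 302 was -0.85 at P7 and -0.12 at P1. The balance of directions at P7 turned with the scaling: the median shift gave 49 higher and 36 lower, quantile normalization 46 and 36, and edgeR 56 and 40. The total at P7 fell to 31 without EC P7 replicate 1, 74 without EC P7 replicate 2, 52 without AT2 P7 replicate 1 and 49 without AT2 P7 replicate 2.

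The difference between P1 and P7 was itself tested and called for 0 microRNAs (limma, 11 at an unadjusted p under 0.05; edgeR 0, with 18). The larger count at P7 therefore does not show a larger difference there. P1 rests on 1 EC sample, and the interaction of MIMAT0001542 was 3.67 ± 1.59 and that of MIMAT0000137 was 2.87 ± 1.88 (both adjusted p = 0.746), so differences of that size could not be called. In a fit on the 7 samples alone, 6 passed. Across the 302 microRNAs the P1 and P7 differences correlated (Pearson r = 0.82, Spearman rho = 0.82, a description across microRNAs, which are not independent), and 234 had the same sign.

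**Figure D3:**
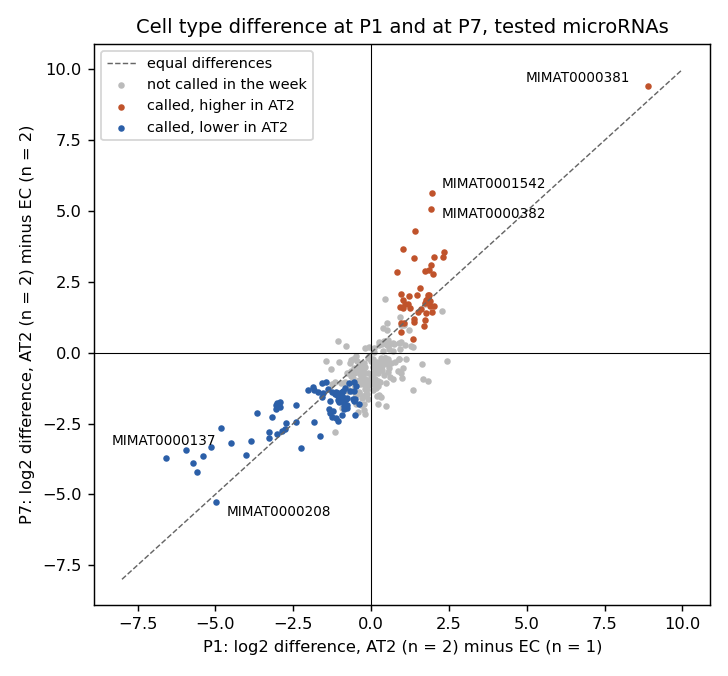
Each point is 1 of the 302 tested microRNAs, with the log2 difference AT2 minus EC at P1 on the horizontal axis and at P7 on the vertical axis, coloured by the call over the week. All called points lie in the 2 quadrants of equal sign. MIMAT0001542 and MIMAT0000382 lie above the dashed line of equal differences (1.97 and 1.93 at P1, 5.64 and 5.09 at P7), and MIMAT0000137 lies further from 0 at P1.

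Sets chosen in samples outside the week gave the same directions within it. In a fit on the 16 samples of the other 4 stages, 12 microRNAs exceeded 4-fold in favour of AT2 cells and 23 in favour of EC (limma, adjusted p under 0.05). In the week, fitted on its 7 samples alone, all 12 and all 23 had the same direction, and 11 of the 12 and 23 of the 23 were called. Over all 302, that fit called 52 higher and 98 lower in AT2 cells (limma). The median log2 difference of the 12 was 2.39 outside the week and 2.55 in it, and that of the 23 was -2.82 and -3.14, beside -0.46 over all 302 in the week.

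Those sets also showed how the 7 samples differed among themselves. The 23 EC-high microRNAs took 42.1% of the counts in EC P1 and 49.6% and 47.0% in the EC samples of P7. In AT2 cells they took 1.48% and 0.775% at P1 and 9.72% and 7.87% at P7. Without MIMAT0000138 the other 22 took 0.449% and 0.199% at P1 and 1.91% and 1.39% at P7. In AT2 cells 21 of the 23 had a higher mean at P7 than at P1, beside 114 of all 302. The median log2 change of the 23 was 1.06, beside -0.28 over all 302. Both AT2 samples of P7 lay above all 9 AT2 samples of the other stages (0.363% to 7.03%), in which the 23 had been chosen to be low. That order rested on MIMAT0000138: without it, AT2 E16.5 replicate 2 (2.10%) lay above both AT2 samples of P7, and AT2 E18.5 replicate 2 (1.84%) above 1 of them.

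The 12 AT2-high microRNAs took 9.59% and 6.41% of the counts in AT2 cells at P1 and 8.15% and 7.25% at P7. They took 1.56% in EC P1, against 0.147% and 0.383% in the EC samples of P7. For 10 of the 12, EC P1 lay above both EC samples of P7, beside 75 of all 302. The median log2 difference of the 12 was 1.67, beside -0.35 over all 302. EC P1 was thus the EC sample of the week with the most AT2-high signal, and the AT2 samples of P7 those with the most EC-high signal. MIMAT0000381, among the 12, was at no more than 2 counts in EC P1. The part of these signals in the P1 and P7 differences was not tested.

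**Figure D4:**
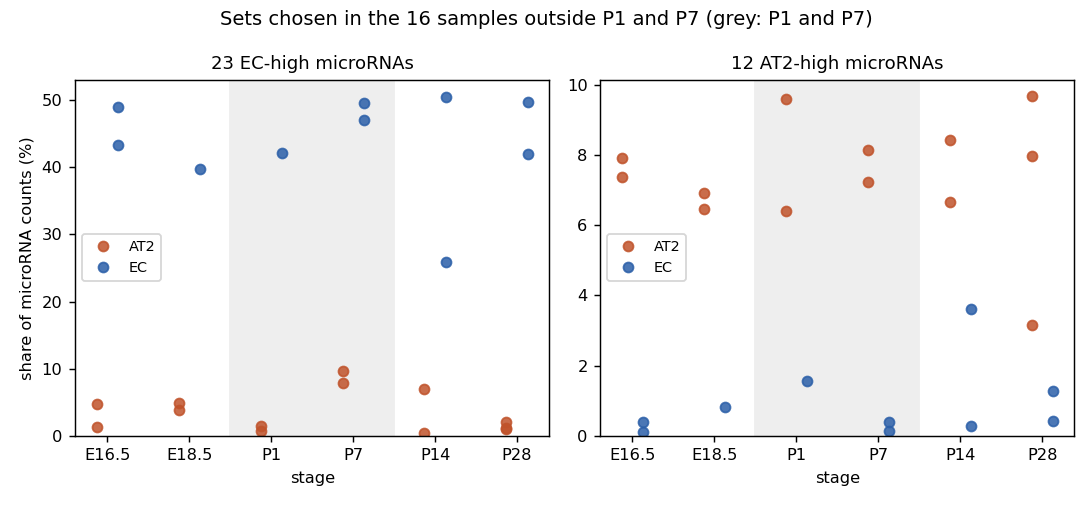
Share of microRNA counts (%) taken by the 23 EC-high (left) and 12 AT2-high (right) microRNAs in each of the 23 samples by stage, orange for AT2 and blue for EC, 1 point per sample, with P1 and P7 shaded. AT2 samples stand at 0.775% to 1.48% at P1 and 7.87% to 9.72% at P7 on the left, and EC P1 stands at 1.56% on the right, above both EC samples of P7.

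The 7 profiles grouped by cell type. Pearson correlations of log2 signal across the 302 microRNAs were 0.923 to 0.981 among the AT2 samples and 0.928 to 0.976 among EC. Between cell types they were lowest between AT2 P1 and EC P7 (0.690 to 0.719) and highest between AT2 P7 and EC P1 (0.908 to 0.909). AT2 P7 with EC P7 gave 0.810 to 0.838 and AT2 P1 with EC P1 0.832 to 0.840.

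Whether a cell type difference belonged to this week was asked by contrasts with the other stages. Against the differences before birth (embryonic days 16.5 and 18.5), 2 microRNAs had a more positive AT2 minus EC difference in the week and 0 a more negative one (0.662% of 302; limma, 25 at an unadjusted p under 0.05; edgeR called 0, with 27). The count was 5 without EC P1 replicate 1, and 1 without either EC or either AT2 sample of P7. With the common floor of 28.2 it was 40, of which 30 were more positive and 10 more negative. That floor is the highest background limit of the week. Before birth the limits reached 95.1 in EC and 57.2 in AT2 cells. Values below background there could stay above the floor, so the 40 are not compared at an equal background. MIMAT0000381 was 1 of the 2 called as deposited. It was at 1 to 2.48 in all 4 AT2 samples before birth and at 888.72 or more in all 4 of the week. Its contrast of 10.50 ± 1.86 (limma, adjusted p = 0.00733) sets fitted values below background against each other and is no bound.

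MIMAT0003151 was the other, and every sample it rests on was above background. Its EC signal was 848.77 and 915.79 at E16.5 and 412.21 at E18.5, then 212.33 at P1 and 123.77 and 90.5 at P7. In AT2 cells it was 68.28 to 104.07 before birth, then 79.95 and 129.17 at P1 and 131.87 and 150.59 at P7. EC samples were lower at each later stage of this span, and all 8 AT2 samples lay between 68.28 and 150.59. The AT2 minus EC difference went from -3.44 (E16.5) and -2.07 (E18.5) to -1.06 at P1 and 0.41 at P7. The contrast of the week with before birth was 2.43 ± 0.55 (limma, adjusted p = 0.0499). It lay at the threshold and missed it with the median shift (adjusted p = 0.103), with quantile normalization (0.0591) and without any of 5 of the 7 samples: either EC or either AT2 sample of P7, or AT2 P1 replicate 2 (limma, adjusted p up to 0.146, values of 2.26 to 2.54).

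Against P14 and P28, 1 microRNA differed, with a more negative AT2 minus EC difference in the week (0.331%; limma, 35 at an unadjusted p under 0.05; edgeR called 0, with 40). MIMAT0000530 was 389.3 and 621.23 in AT2 cells at P1 and 1346.46 and 1518.62 at P7. In EC it was 762.26 at P1 and 1846.21 and 1563.69 at P7. Both AT2 values lay below the EC values at each age, but neither difference passed (-0.63 at P1, adjusted p = 0.470, and -0.25 at P7, adjusted p = 0.625; limma). At P14 and P28 the AT2 samples were at 1572.67 to 5447.24 and the EC samples at 710.06 to 1447.98, with no overlap. The contrast was -2.12 ± 0.42 (limma, adjusted p = 0.0299). It lost its call with the median shift (adjusted p = 0.109), with quantile normalization (0.067) and without any of 6 of the 7 samples (all but AT2 P1 replicate 2; limma, adjusted p of 0.0656 to 0.152, values of -1.93 to -2.18).

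Most differences of the week had the same sign at other stages. Of the 123 called, 119 had the same sign before birth and 117 at P14 and P28, beside 249 of all 302 in each comparison. Calls at the other stages were not compared. The difference of the week correlated with that before birth (r = 0.78, rho = 0.77) and with that at P14 and P28 (r = 0.88, rho = 0.81) across the 302 microRNAs, as a description.

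The panel also reads 4 messenger RNAs, whose signal carries the same factor per sample as that of the microRNAs. B2m encodes beta-2-microglobulin, the light chain of MHC class I. It was 22.01 and 5.96 in AT2 cells at P1 and 47.9 and 75.07 at P7, against 99.27 in EC at P1 and 874.52 and 1280.88 at P7. The groups did not overlap, B2m was lowest at P1 in both cell types, and AT2 P1 replicate 2 was not above background. The log2 difference between the mean of 4 and the mean of 3 was -4.12 (SD 1.51 and 1.98). The exact two-sided permutation test gave p = 0.0571, the smallest that 4 samples against 3 allow (0.114 after Benjamini-Hochberg adjustment over the 4 messenger RNAs), so no difference among them could pass 0.05.

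Actb encodes cytoplasmic beta-actin. It was 1164.44 and 624.41 in AT2 cells at P1 and 537.22 and 1497.55 at P7, against 1821.14 in EC at P1 and 3104.77 and 3512.86 at P7. It was lower in every AT2 sample than in any EC sample, by a log2 of -1.63 (SD 0.71 and 0.50; exact permutation p = 0.0571, adjusted 0.114). Gapdh, a glycolytic enzyme, was 6.36 to 36.44 in AT2 cells and 27.18 to 91.37 in EC, with an overlap between AT2 P7 replicate 2 and EC P1 (log2 -1.62, SD 1.02 and 0.96; exact permutation p = 0.114, adjusted 0.152). Its value of 6.36, in AT2 P1 replicate 2, was not above background. Rpl19, which encodes a component of the large ribosomal subunit, was 164.98 to 659.27 in AT2 cells and 533.27 to 795.33 in EC, with overlap (log2 -0.54, SD 0.95 and 0.29; exact permutation p = 0.571). When each sample was instead scaled to its microRNA total, the differences were -3.21 for B2m, -0.69 for Actb, -0.72 for Gapdh and 0.40 for Rpl19, and the groups overlapped for all 4.

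**Figure D5:**
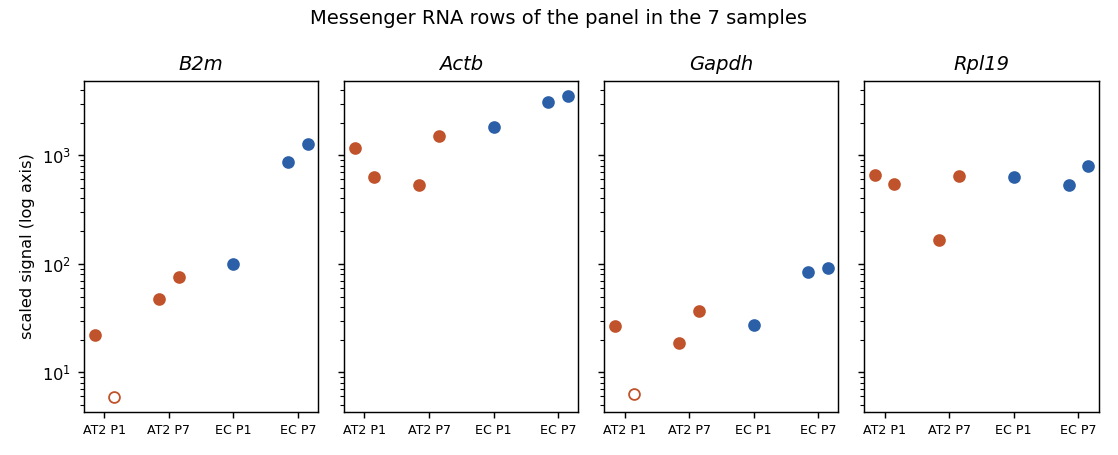
Signal on a log axis of the 4 messenger RNA rows in the 7 samples, orange for AT2 and blue for EC, 1 point per sample, open where the count was not above background. B2m spans 5.96 to 75.07 in AT2 cells and 99.27 to 1280.88 in EC, and Rpl19 overlaps between the cell types.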

How the data were processed

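Per the labels' protocols, RNA of the sorted cells was hybridised to the nCounter mouse miRNA panel. The build mm10 appears in the submitters' processing notes. How the authors normalized, and whether they subtracted background, is not stated there or in the file. The deposited values are a signal. Within a sample, all but the ERCC values share 1 step, so that 13861 of 13861 values (100.0%) are whole numbers of steps (tolerance 0.1; values floored at 1 left out). The step ranged from 0.296 to 7.93. ERCC rows were not scaled.

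The main test was limma 3.58.1 (R 4.3.3, lmFit, eBayes with trend) on log2(value + 1), with 12 group means over 23 samples. The added 1 shrinks changes of low microRNAs, but the signal of 1 count differs with the step of the sample. MIMAT0000381, at 1 count in every sample before birth, gave AT2 minus EC differences of -0.97 at E16.5 and -1.71 at E18.5. P-values are two-sided, Benjamini-Hochberg adjusted over 302 microRNAs, threshold 0.05. Bounds set samples below background to their limit. edgeR 4.0.16 on recovered counts was an alternative. The scripts were also run on simulated counts with 1 common profile and a fixed spread, unlike these data, and no conclusion is drawn from that. Named microRNAs were those above background in every sample of the higher cell type with the highest and lowest called differences in the week, and the lowest adjusted p elsewhere, kept with 2 per direction in place of 12 and 6. MIMAT0000138 and MIMAT0003484 were singled out after their values were seen. The 20 lists (110 microRNA names, 94 with a RefSeq GRCm38.p6 mature sequence) could not be tied to identifiers, so 0 members were matched and 0 sequences are printed. The 4 messenger RNAs took their symbols from RefSeq (4 of 4). The contrast and the lists were chosen with earlier results of these data known.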

Additional observations from a re-analysis of the deposited data

Results flagged for a closer look

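For 3 microRNAs the AT2 minus EC difference of the week differed from that of other stages by a test of the difference itself. The value of MIMAT0000381 against before birth was 10.50 on the log2 scale (limma, adjusted p = 0.00733; edgeR 12.22, adjusted p = 0.471). Across the series MIMAT0000381 did not exceed 2 counts in any of the 10 EC samples, any of the 4 AT2 samples before birth or AT2 P14 replicate 1, and had a signal of 888.72 or more in the other 8 AT2 samples, with no value between. The value of MIMAT0003151 against before birth was 2.43 (limma, adjusted p = 0.0499; edgeR 2.52, adjusted p = 0.325). The value of MIMAT0000530 against P14 and P28 was -2.12 (limma, adjusted p = 0.0299; edgeR -1.96, adjusted p = 0.131). Of 18 sets of 4 AT2 values tested for a sample far from the others, 0 had one. With only 4 values per set, no conclusion is drawn from this. MIMAT0003484 took 34.1% of the counts in AT2 P1 replicate 2, against 3.31% to 12.4% in the other AT2 samples of the week.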

How the results depend on the processing

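The count of the week stayed within 1.5 times of 123 in all alternatives but 1, subtraction of the mean background, with 77 (29 higher, 48 lower in AT2 cells, 71 of them among the 123). Calls higher in AT2 cells made up 35.8% of all calls as deposited, 50.4% with the median shift (median -0.06), 52.3% with quantile normalization and 48.5% with edgeR, which called 130, 63 higher and 67 lower. Leaving out 1 of the 7 samples gave 100 or more calls in the week, 8 to 20 at P1, 31 to 130 at P7, 0 to 0 for P7 minus P1, 1 to 5 against before birth and 0 to 1 against P14 and P28. Without EC P1 replicate 1 the week is the P7 difference alone, with 37 higher and 96 lower, so that this fit is counted once, under the week. With the background subtracted P1 had 13 calls, P7 62 and the contrast with before birth 4. The median shift gave 85 at P7, 1 against before birth and 0 against P14 and P28 (limma, 31 at an unadjusted p under 0.05), and quantile normalization 82, 1 and 0 (36). The common floor gave 40 and 7 in the last 2 contrasts, and also removes the spread below it. It was set by the week, while limits reached 95.1 in EC before birth and 69.7 in EC at P14 and P28. The background was thus not made equal in these 2 contrasts. Without a filter 1 was called against before birth, and with a pseudocount of 10, 2 against P14 and P28. edgeR called 41 at P1 and 0 in both last contrasts (27 and 40 at an unadjusted p under 0.05). The 7 samples alone gave 66 at P1 and 6 for P7 minus P1. With EC P14 replicate 2 and EC P28 replicate 2 left out, chosen after seeing the data, the counts were 44 at P1, 1 for P7 minus P1, 5 and 2. The title ID as a replicate block gave 35 at P1 (9 higher, 26 lower) and 136 in the week, with all 123 among them. It lowered the adjusted p of MIMAT0003151 against before birth to 0.014 and of MIMAT0000530 against P14 and P28 to 0.0126 (limma). Deviations of samples that share an ID correlated at 0.21 to 0.31 in 6 of 7 pairs and at -0.02 in the other. In groups of 2 the deviations mirror each other, so both E16.5 pairs gave the same 0.27 and both P7 pairs the same 0.28. These repeats are not separate evidence. The correlation fitted for the title ID block was 0.231. The labels do not say what an ID marks, and since not every pair passed 0.1, the IDs were not treated as pairs. Rpl19 turned to 0.40 relative to the microRNA total. The cause of these shifts was not tested. At P1 1 EC sample, and at background level the counts, limit the precision.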
